A study of Arabidopsis thaliana with 12 samples.

Results

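Among the 3439 features of a single-colour array for Arabidopsis thaliana, 30 carried a signal in dark-adapted wild-type plants and were listed at 0 on nearly all arrays of the laf6 mutant. They were chosen by the deposited intensities themselves: a value of exactly 0 on at least 5 of the 6 laf6 arrays and a value above 0 on at least 5 of the 6 WT arrays. In all, 33 features (0.96%) met this rule. The features of chr31, AT4G38040 and AT2G38950 were among them and are left out here, and AT5G19940, also left out by name, was at 0 on 4 laf6 arrays and did not meet it. Because the laf6 and WT values chose the members, the contrast between the groups is described below without a test.

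Total RNA came from plants of the Landsberg ecotype, all kept in the dark before sampling, with 6 arrays of WT and 6 of laf6. The labels give laf6 as a mutant without the atABC1 transporter and give no age, no tissue and no second genotype in either group. They do not say whether the arrays came from separate plants, so the spread between arrays may be technical. The gene behind laf6 is now named SUFB and encodes a part of the plastid machinery that builds iron-sulfur clusters.

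As background, plants mutant in a LAF gene stay long after growth in far-red light, the light sensed by phytochrome A. Plastid iron-sulfur clusters serve photosystem I, ferredoxin and several enzymes of chloroplast metabolism. On an array of this kind a transcript is read from the brightness of its spot, and a spot no brighter than its surroundings is commonly set to 0. The labels do not say whether a 0 has that meaning in these files. A 0 therefore means only that no intensity was listed, and fewer cells with a transcript cannot be told apart from less RNA per cell.

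Of 14 genes of plastid iron-sulfur assembly, the lesion gene among them, 0 were listed for any feature, and the same held for 13 genes of phytochrome A signalling. No member with a gene listed therefore reads either list, and whether any of the 13 members without one does is unknown. The lesion gene's own transcript could not be read from an annotated feature.

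The platform annotation listed a single gene for 7 members (23.3%), several genes for 10 (33.3%) and no gene for 13 (43.3%). Over all features the shares were 20.1% with a single gene, 25.3% with several and 54.6% with none. Of the 10 members with several genes, 9 had 2 genes and 1 had 3, and these are given by feature number only, since the spot does not tell which transcript it read. The 7 named genes carry only locus codes in the gene table, without a symbol or a described function.

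The brightest named member was AT4G03150, with deposited intensities of 0.541, 0.516, 0.758, 0.821, 0.458 and 0.415 on WT arrays 1 to 6. It was listed at 0 on laf6 arrays 1 to 5 and at 0.169 on laf6 array 6. Its groups did not overlap, and its mean WT intensity of 0.585 ± 0.165 (SD, n = 6) stood above that of 75.5% of all features.

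AT2G46190 read 0.0354, 0.169, 0.0741, 0.21, 0.16 and 0.137 on the WT arrays and 0 on every laf6 array but array 4. That array read 0.0346, just under the lowest WT array, so the groups touched without overlapping. Its mean WT intensity was 0.131 ± 0.0649 (SD, n = 6).

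AT4G31930, a gene of a family of mitochondrial matrix glycoproteins, was listed at 0 on WT array 1 and read 0.011, 0.159, 0.0537, 0.247 and 0.144 on the other WT arrays. In laf6 it read 0.126 on array 5 and 0 elsewhere. That value lay above 3 of the 6 WT arrays, so for AT4G31930 the groups overlapped. Its mean in WT was 0.102 ± 0.097 (SD, n = 6), a spread nearly as large as the mean.

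For AT2G06040 the WT arrays gave 0.073, 0.0128, 0.155, 0.197, 0.0898 and 0.0697. The laf6 arrays gave 0 except array 2, at 0.000728. That is far below the 1st percentile of the positive values on the WT arrays (0.00505 to 0.00669 by array). On laf6 array 2 itself the lowest positive value was 0.000149. No laf6 array reached any WT array.

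AT2G03140 was the only named member at 0 on all 6 laf6 arrays. In WT it was also at 0 on array 1 and read 0.0821, 0.108, 0.0634, 0.183 and 0.0499 on the others, a mean of 0.0811 ± 0.0617 (SD, n = 6). The WT array at 0 ties with the laf6 arrays, so the groups were not fully apart.

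The dimmest named members were AT2G24810 and AT1G49940. AT2G24810, a gene of the thaumatin-like family known from plant defence, read 0.0246, 0.0329, 0.0721, 0.0844, 0.057 and 0.061 in WT and 0.038 on laf6 array 3. AT1G49940 read 0.0228, 0.0328, 0.105, 0.0284, 0.0489 and 0.0346 in WT and 0.044 on laf6 array 5. In both genes the single laf6 signal fell inside the WT range, so what sets the groups apart is the 5 laf6 arrays at 0, not the height of the signal.

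**Figure D1:**
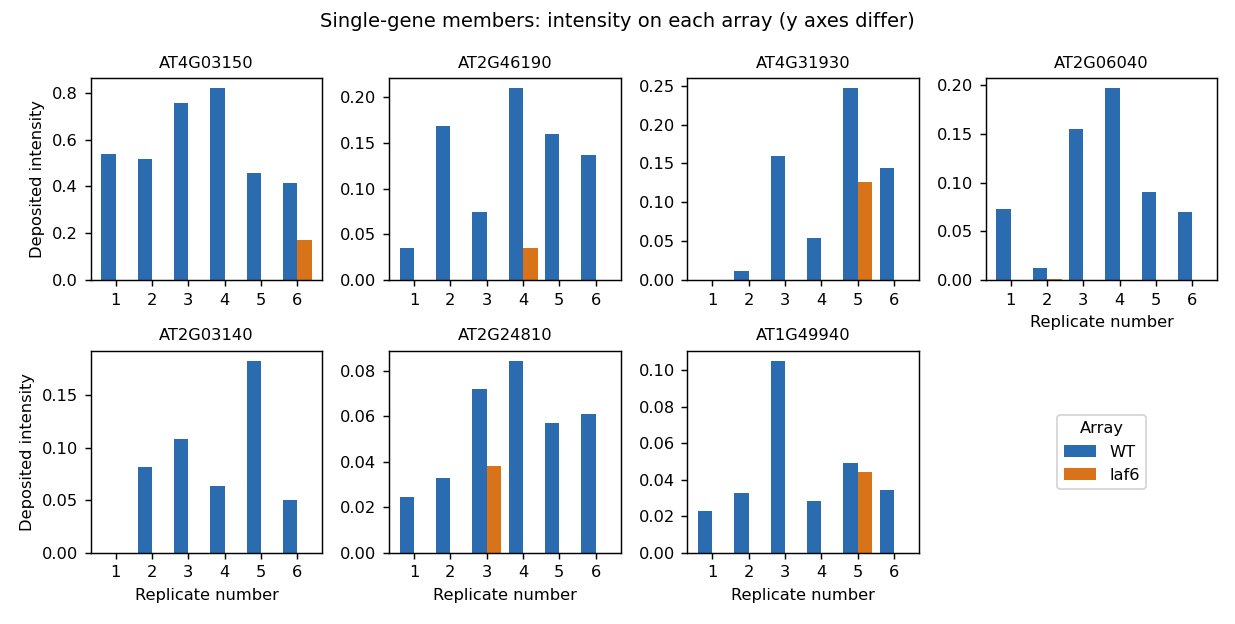
Deposited intensity (linear, y axis, own scale per panel) of the 7 single-gene members on each array, by replicate number (x axis), with WT in blue and laf6 in orange. AT2G03140 has no laf6 bar, and the other 6 genes have 1 each, which for AT2G06040 (0.000728) is barely visible.

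Among the members without a single gene, the brightest was feature 267, which has no gene listed. It read 0.434, 0.738, 0.638, 0.747, 0.616 and 0.699 on the WT arrays and 0 on all 6 laf6 arrays. With a mean of 0.645 ± 0.116 (SD, n = 6) it was the brightest and the steadiest member, its SD being 18% of its mean. Left out by name, chr31 was of like brightness, at 0.616 ± 0.186, and also at 0 on all laf6 arrays.

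Feature 2724, with no gene listed, read 0.0638 at its lowest and 0.892 at its highest in WT, and 0 on every laf6 array. Its direct neighbour in number, feature 2723, ran from 0.0301 to 0.43 in WT and was also at 0 throughout laf6. Both were highest on WT array 4 and next on array 3, the arrays that also had the highest medians over all features (0.289 and 0.28). Feature 2719 close by, with 2 genes listed, ran from 0.161 to 0.429 and was highest on WT array 3.

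Features 4587 and 4588 are also direct neighbours. The first, with 2 genes listed, had a mean WT intensity of 0.385 ± 0.147 and 0.0145 on laf6 array 5. The second, with no gene listed, had a mean of 0.297 ± 0.0887 (SD, n = 6 each) and no laf6 signal. In each of them WT arrays 3 to 6 were all brighter than arrays 1 and 2.

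Feature 2266 ran from 0.105 to 0.497 in WT, feature 2515 from 0.0988 to 0.275, and both were at 0 on all laf6 arrays. Feature 2518 ran from 0.112 to 0.271, and its single laf6 signal, 0.112 on array 5, came up to the lowest WT value. Feature 4369, with 2 genes listed, owed its height to 1 array: WT array 2 read 0.628, arrays 3 to 6 from 0.0349 to 0.171, and WT array 1 was at 0.

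**Figure D2:**
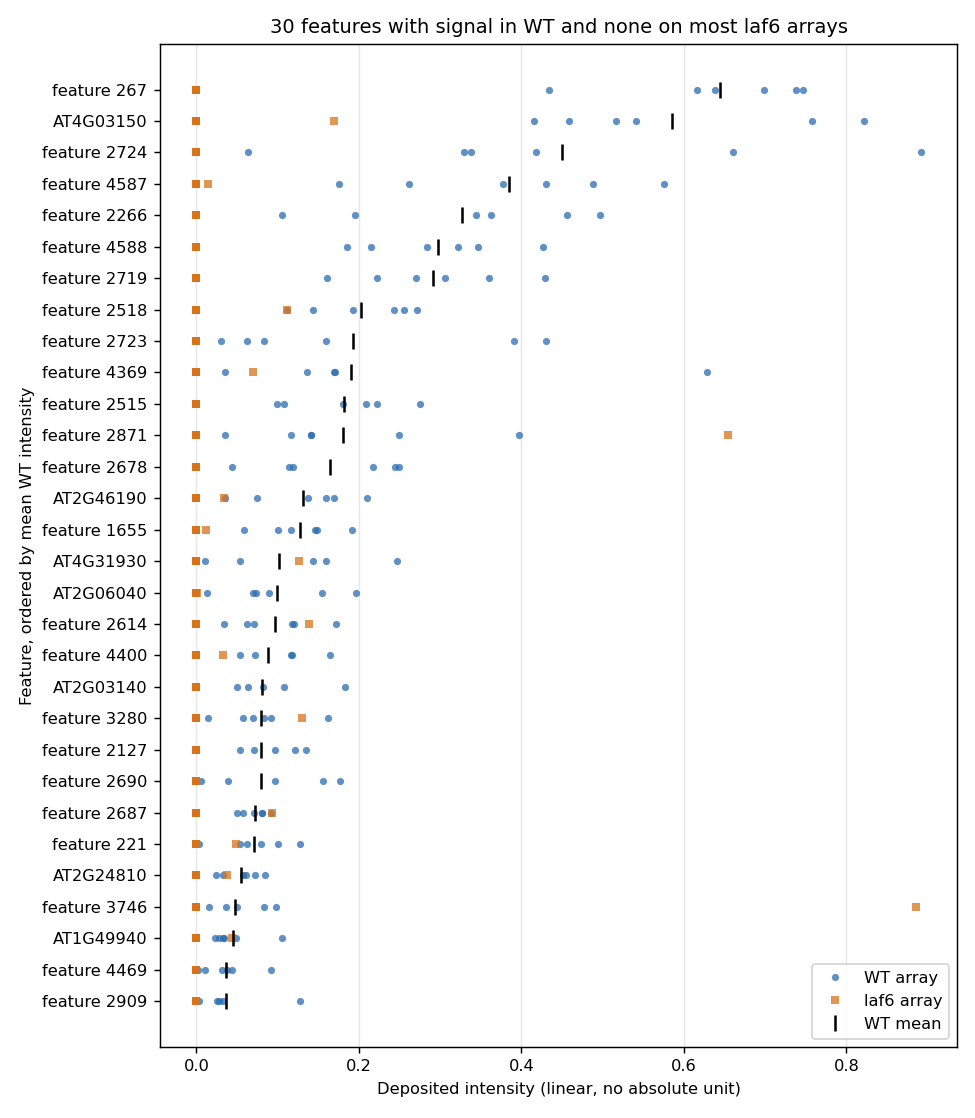
Deposited intensity (linear, x axis) of all 30 members (y axis, ordered by mean WT intensity) on each WT array (blue circles) and each laf6 array (orange squares), with the WT mean as a black tick. Most laf6 squares lie on 0, and features 3746 and 2871 have a laf6 square to the right of all their WT circles. Feature 2687 has one too, by a barely visible margin (0.0927 against at most 0.0917 in WT).

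Over all members, 9 had a signal on all 6 WT arrays and none on any laf6 array. A further 13 had a signal on all WT arrays and on 1 laf6 array, 4 were at 0 on 1 WT array and on all laf6 arrays, and 4 were at 0 on 1 WT array and on 5 laf6 arrays. The groups did not overlap in 15 members and overlapped in the other 15, with ties counted as overlap. In the 4 members at 0 on 1 WT array and on all laf6 arrays, the overlap was only such a tie at 0. Every laf6 array lay below every WT array in 17.1% of all features, and nothing is read from the members' share since the rule used these values.

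The 17 laf6 signals among the members were spread over the arrays, with 1 on array 1, 3 on array 2, 2 on array 3, 3 on array 4 and 4 each on arrays 5 and 6. In 3 members the laf6 signal was higher than every WT value. Feature 3746 read 0.886 on laf6 array 6 against at most 0.0979 in WT. Feature 2871 read 0.654 on laf6 array 4 against at most 0.397, and feature 2687 read 0.0927 on laf6 array 3 against at most 0.0917. For these features the mean does not describe the group, and "silent" holds for 5 laf6 arrays only.

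The summed intensity of the 30 members was 3.43, 4.83, 6.53, 7.42, 5.29 and 5.01 on WT arrays 1 to 6. It was 0.0695, 0.27, 0.131, 0.7, 0.297 and 1.14 on the laf6 arrays. As a share of the summed intensity of an array, the members took 0.161 ± 0.0373% on WT arrays and 0.0129 ± 0.0124% on laf6 arrays (SD, n = 6 each). The highest laf6 sums, on arrays 4 and 6, rested on features 2871 and 3746: without the 3 members whose laf6 signal exceeded WT, no laf6 array summed to more than 0.297.

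Features at 0 were more frequent in laf6 over the whole table as well, with 491 to 674 per laf6 array (14.3 to 19.6%) against 447 to 540 per WT array (13 to 15.7%). The laf6 arrays with the fewest zeros, 5 and 6, were also those with the most member signals, and WT array 1, with the most zeros in WT, held 6 of the 8 WT zeros among the members. As deposited, the median over all features was 0.178 to 0.202 on laf6 arrays and 0.218 to 0.289 on WT arrays. Every laf6 array was thus dimmer than every WT array by this measure. The part of these array differences, in zeros and in brightness, in the members' pattern was not tested.

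**Figure D3:**
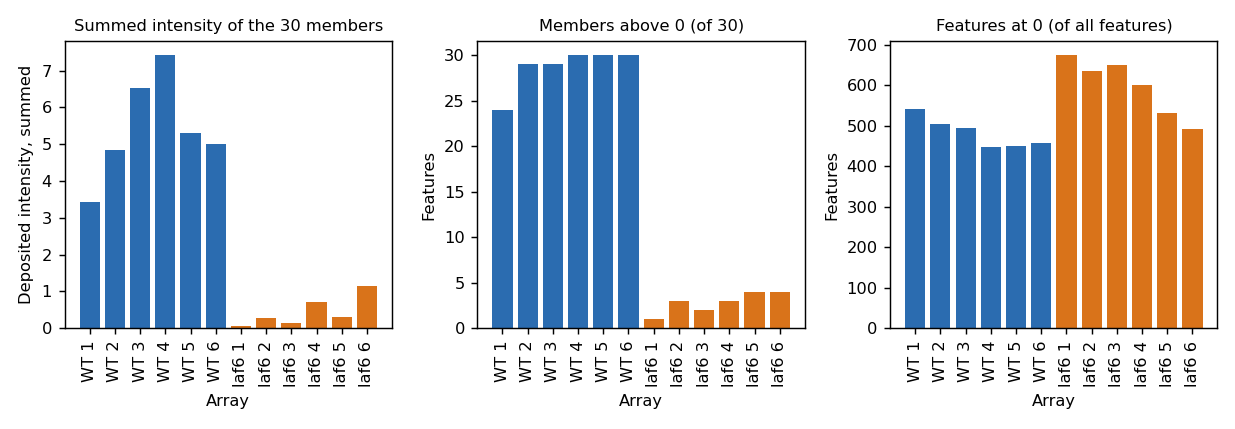
Summed deposited intensity of the 30 members, number of members above 0, and number of all features at 0 (y axes of the panels) on each of the 12 arrays (x axes), WT in blue and laf6 in orange. Members above 0 number 24 to 30 on WT arrays and 1 to 4 on laf6 arrays, while features at 0 number 447 to 540 and 491 to 674.

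Within WT the members were uneven. WT array 1 gave the lowest value for 18 of 30 members (60%), and among 1996 other features of the same WT range with a signal on at least 5 WT arrays it gave the lowest value for 15.9%. WT arrays 3 and 4 gave the highest value for 18 members, 60% against 53.7% of those other features. With all features split by mean WT intensity into 10 equal classes, class 1 being the dimmest, dim features were also compared alone. In classes 2 and 3 array 1 was lowest for 8 of 15 members and for 20.7% of 368 other features.

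The members' SD in WT had a median of 60.7% of the mean and ran from 18% (feature 267) to 130% (feature 2909), against a median of 30.1% in the 1996 other features. In classes 2 and 3, where the 15 dimmest members lie, the median was 66.4% for the members and 65.7% for the others. In all, 23 of 30 members had a larger relative spread than the median of the other features in their own class.

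The members were dim, but the rule bears on this from both sides. A dim feature lies nearer to the 0 that the rule asked for on at least 5 laf6 arrays. Nothing about the members is therefore read from their dimness. The rule also asked for a signal on at least 5 WT arrays, so the dimmest features could not be members. None in class 1 had such a signal. The members' mean WT intensity had a median of 0.115, and ran from 0.0361 to 0.645, against a median of 0.25 over all features. Below that overall median lay 23 members, and 751 features were brighter than the brightest member. Of the 172 positive WT values of the members, 15 (8.72%) were at or under the 5th percentile of the positive values of their array and 96 (55.8%) at or under the 25th.

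The 1996 other features share the members' outer range of WT intensity but lie higher in it, with 368 of them in classes 2 and 3 against 15 of 30 members. By the way they were chosen they hold no feature at 0 on 5 or 6 laf6 arrays. Of these 1996, 1530 had a signal on all 6 laf6 arrays, 244 were at 0 on 1 laf6 array, 136 on 2, 55 on 3 and 31 on 4. Their mean laf6 intensity was a median of 0.76 times the WT mean (quartiles 0.565 and 1.06), as deposited.

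In brightness classes 1 to 5, 25 of 1087 features with a WT signal (2.3%) met the rule before the named genes were left out, and in classes 6 to 10 it was 8 of 1713 (0.467%). None of the 687 features with a WT signal in classes 9 and 10 was at 0 on 5 laf6 arrays. The share was highest, 5% (5 of 100 features), in class 2, where mean WT intensities ran from 0.0106 to 0.0555. Since the rule's zeros bear on brightness, nothing about the members is read from these shares.

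The same rule turned round, at 0 on at least 5 WT arrays and above 0 on at least 5 laf6 arrays, was met by 4 features (0.116%), none with a gene listed. Their mean laf6 intensities ran from 0.0527 to 0.152. Among features with a signal on at least 5 arrays of 1 group, 16 of 2800 were at 0 on all 6 laf6 arrays and 2 of 2587 on all 6 WT arrays. Signals without a counterpart were thus listed more often in WT than in laf6. The arrays also differed in their number of zeros and in their median intensity, which was lower on every laf6 array. The part of these array differences in the counts was not tested.

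**Figure D4:**
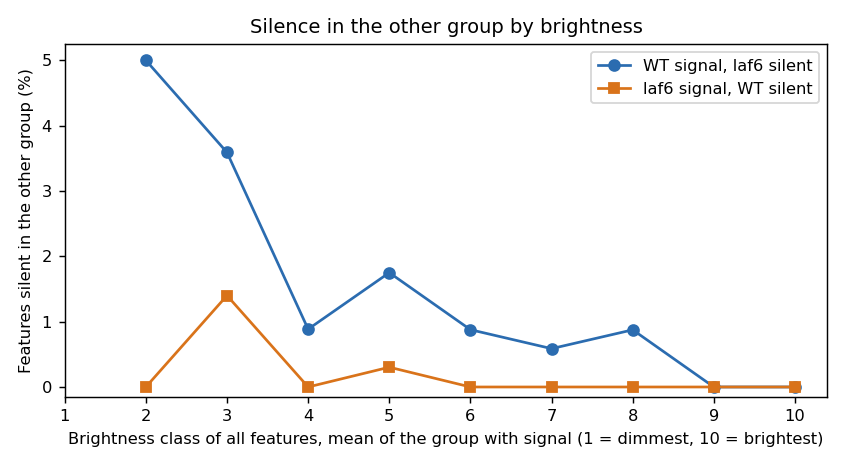
Share of features (y axis, percent) that were silent on at least 5 arrays of the other group, among those with a signal on at least 5 arrays of 1 group, by class of mean intensity in the group with signal (x axis, class 1 the dimmest, with no such feature). The share of WT-signal features silent in laf6 (blue) is 5% in class 2 and 0% in classes 9 and 10, and the reverse share (orange) is at most 1.4%.

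Features lay close to the rule's threshold on both sides. Just inside it were 21 members with 5 laf6 arrays at 0 or 5 WT arrays above 0, with a median mean intensity of 0.0876 in WT and 0.00733 in laf6. Just outside were 49 features, 37 with 4 laf6 arrays at 0 and 12 with 4 WT arrays above 0, with medians of 0.0732 and 0.0199. Zeros in both groups sorted these features, so nothing is read from the difference between the medians. Among the 49 just outside, 8 had a single gene.

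AT3G57630 was the clearest of these: it ran from 0.106 to 0.248 in WT and missed the rule through laf6 arrays 5 (0.0386) and 6 (0.00316), both below every WT array. AT1G35340 ran from 0.0142 to 0.11 in WT and reached 0.0266 in laf6, and AT4G29750 ran from 0.0213 to 0.0549 and reached 0.0594. AT4G37230 (mean 0.0842 in WT and 0.0124 in laf6) and AT3G56250 (0.0228 and 0.0263) were at 0 on 1 WT array and 4 laf6 arrays. In AT3G56250 the laf6 mean was the higher one, so the count of zeros and the mean pointed in opposite directions.

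The remaining ones had only 4 WT arrays above 0. AT5G15280 and AT3G47080 were at 0 on all 6 laf6 arrays but had mean WT intensities of only 0.0515 and 0.00249, and AT1G64510 (0.0227) had a laf6 signal of 0.0508 on array 4. For AT3G47080 the highest WT value was 0.00532, at the faint end of any array.

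A second feature for a listed gene existed for 3 of the 17 members with a gene listed, and was looked for after the values were seen. All 3 members list several genes, so the second feature need not read the same transcript. One of the 3 genes listed for feature 2690 had a feature of its own, AT1G03810. Feature 2690 ran from 0 to 0.177 in WT and was at 0 throughout laf6, whereas AT1G03810 had a signal on all 12 arrays, from 0.186 to 0.424 in WT and from 0.116 to 0.207 in laf6. The groups of AT1G03810 overlapped, with means of 0.314 ± 0.08 and 0.151 ± 0.0356 (SD, n = 6 each). In limma's moderated test on quantile-normalized log2 intensities its log2 difference (laf6 minus WT) was -0.61 ± 0.19 (SE, adjusted p = 0.0332 over 3439 features). With the intensities as deposited limma gave -1.04 (adjusted p = 0.00262). The call was lost in 10 of 22 other settings, among them without any one of WT arrays 1, 2, 3 and 5 or laf6 arrays 2, 3, 5 and 6, with differences of -0.61 to -0.51 in those 10. Over all settings the difference ran from -1.04 to -0.41 and the adjusted p from 0.00262 to 0.102.

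The same pairs of genes listed for features 3746 and 4369 were each listed for a second feature, 2399 and 222. Both of these were at 0 on all 12 arrays, WT included. Neither repeated the WT signal of its partner, but feature 222 is numbered in a multiple of 6, a set in which, as given at the end, features at 0 in both groups were frequent. For the 14 other members with a gene listed there was no second feature.

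The feature numbers of the members were unevenly spread. In 35 blocks of up to 100 consecutive features, 18 blocks held no member and the block from feature 2596 to 2725 held 8, while no other block held more than 2. These 8, numbered from 2614 to 2724, included AT2G46190 and features 2719, 2723 and 2724. With the features left out by name counted too, the block from 141 to 272 held 3 and the block from 4042 to 4180 held 2. The labels do not say whether feature numbers follow the place on the array, and the blocks were drawn after the values were seen.

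Over the whole table limma found 473 features (13.8%) lower and 428 (12.4%) higher in laf6, or 903 lower and 252 higher with the intensities as deposited. Among the 92 features of that block that did not meet the rule, 17 (18.5%) were lower and 14 (15.2%) higher, with a median log2 difference of -0.15 against -0.02 over all features. These features were at 0 on a mean of 0.946 laf6 arrays and 0.511 WT arrays, against 1.04 and 0.842 over the table. Among the 51 features directly before or after a member, 7 (13.7%) were lower and 13 (25.5%) higher, with a median difference of 0. These neighbours were at 0 on a mean of 1.8 laf6 arrays and 1.24 WT arrays, both above the means over the table. None of these differences from the whole table was tested.

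A further trait of the numbering touched 1 member. The 261 features numbered in multiples of 6 had a median WT intensity of 0.00648, against 0.281 for the other features, and 35.6% of them were at 0 on at least 5 arrays of each group, against 3.21%. Feature 2724, with a mean WT intensity of 0.45 ± 0.289, was the only member among them. The labels and the annotation do not say what these numbers have in common, and 119 of the 261 had a gene listed.

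**Figure D5:**
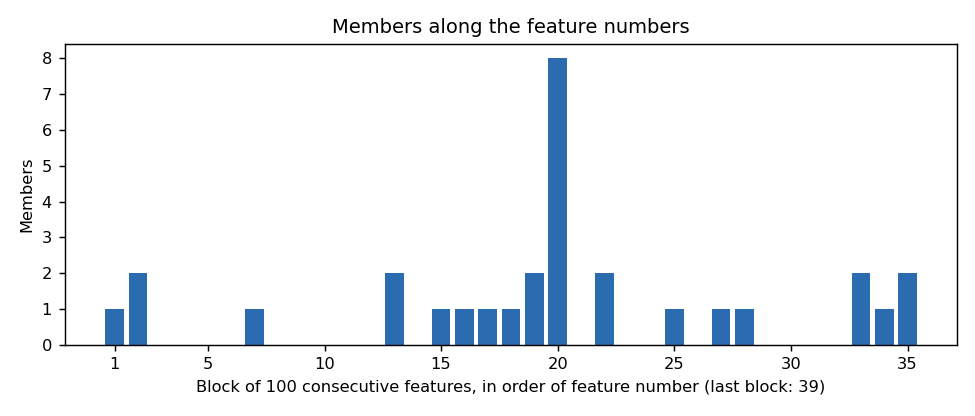
Number of members (y axis) in each of 35 blocks of 100 consecutive features in order of feature number (x axis; the last block holds 39). The block from 2596 to 2725 stands out with 8 members, and the others hold 0 to 2.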

How the data were processed

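The deposited table gives 1 intensity per feature and array, on a linear scale from 0 to about 100. How the authors corrected background and scaled the arrays, and with which software, is not stated in the labels or the file header. All 12 value columns were used. Members, levels and zeros were taken from the values as deposited, with no scaling, since no scaling factor turns a 0 into a signal. Whether dim features were more often listed at 0 on the dimmer laf6 arrays was not tested. The members and lists were chosen with earlier results of these data known. Gene names came from the platform annotation, updated through the RefSeq table of assembly TAIR10.1 (690 of 692 single-gene features matched, and all 7 named members).

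For features outside the rule, groups were compared with limma 3.58.1 in R 4.3.3 on log2 of quantile-normalized intensities, with values below the 1st percentile of all positive values (0.00597) set to that percentile. P-values were two-sided and adjusted by Benjamini-Hochberg over 3439 features, with 0.05 as the threshold. The fit was also run on simulated data, drawn as independent normal log2 values. These held no link between same-numbered arrays and no feature with only some arrays tied at 0. That run is therefore no check on how the fit handles either. Every single-gene member was named, with the 10 brightest other members and the single-gene features just outside the rule. Features 2871, 3746, 2687, 2909 and 2690 were added after their values were seen. So were features 221, 1655, 2614, 3280 and 4400, each flagged for 1 array far from the others. Other members of the named genes' families were to be tested, but the gene table holds no family descriptions, so this was not done. The number of arrays limits the precision. No sequences were given for these features, so none are printed.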

Additional observations from a re-analysis of the deposited data

Results flagged for a closer look

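In 86 groups of 6 arrays, 25 held 1 array far from the other 5. By chance about 1 in 20 groups would do so when no values are tied at 0. In 18 of the 25 the other 5 laf6 arrays were at 0, where any signal stands apart. These were laf6 array 1 for feature 4369 (0.0695), array 2 for AT2G06040 (0.000728) and features 2614 (0.139) and 3280 (0.13), and array 3 for AT2G24810 (0.038) and feature 2687 (0.0927). On array 4 they were AT2G46190 (0.0346), AT1G64510 (0.0508) and features 1655 (0.0121) and 2871 (0.654). On array 5 they were AT1G49940 (0.044), AT4G31930 (0.126) and features 2518 (0.112) and 4587 (0.0145), and on array 6 AT4G03150 (0.169) and features 221 (0.0489), 3746 (0.886) and 4400 (0.0329).

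In WT, 1 array was far above the others for AT1G49940 (array 3, 0.105), feature 2909 (array 2, 0.128), feature 4369 (array 2, 0.628) and AT3G57630 (array 4, 0.248), and far below for AT1G35340 (array 1, 0.0142). Among features just outside the rule, 1 laf6 array was far above for AT3G57630 (array 5, 0.0386) and AT4G29750 (array 4, 0.0594). No cause of these values was tested.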

How the results depend on the processing

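The number of members depended on how strictly the rule was drawn. It was 9 with all 6 arrays required in each group and 89 with 4 of 6, where the reverse set held 0 and 37 features. With faint values up to the 5th percentile of an array also counted as no signal, 39 features met the rule, 24 of them members, and 7 the reverse. Leaving out 1 array, while still allowing 1 exception per group, gave 32 to 54 features, the highest without laf6 array 5 (54) or 6 (52), and 6 to 10 for the reverse. Without replicates 1 and 2 the counts were 74 and 36, and with adjacent replicate numbers averaged 139 and 116. Leaving out or averaging arrays in this way can add features but cannot remove a member, so it does not bear on the members' stability.

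The members' median WT intensity was 0.115 as deposited, 0.0987 after quantile normalization, 0.102 after median or 75th percentile scaling and 0.109 to 0.123 with 1 WT array left out. Leaving 1 of 6 arrays out cannot move a mean by its SD, so the named members' levels under it are no check. With intensities as deposited limma gave 903 features lower and 252 higher, and with adjacent numbers averaged 256 lower. With the replicate number as a block it gave 458 lower and 414 higher, with no change beyond 1.5 times. Same-numbered arrays deviated together (correlations of 0.0966 to 0.184, each array closest to its own number), but the labels do not say that a number marks shared material. Relatives of the named members were not run. Intensities near 0 have no detection call, which limits all counts of zeros.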
